A study of Mus musculus with 2 samples.

Results

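Leukocytes enter the ovary as it ovulates, and 42 genes that mark them were followed here in the ovulating ovary with and without the progesterone receptor (PR). The 42 genes were chosen by name, as markers of leukocytes in general, macrophages, neutrophils, lymphocytes, mast cells and eosinophils. The array has 18193 genes with a probe set of their own. Earlier results of these data were known when the 42 genes and the other lists were chosen. Immature C57BL/6 mice, 24 to 28 days old, were either wild type or PR knockout. All were primed with PMSG (5 IU), an equine gonadotropin that makes follicles grow, and given hCG (5 IU), a human gonadotropin that acts like luteinizing hormone and triggers ovulation, 48 h later. Ovaries were collected 11 h after hCG, and total RNA of each genotype was hybridized to 1 Affymetrix mouse array. The disrupted part of the receptor gene, and how many animals each RNA sample came from, are not given in the sources used here.

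With 1 array per genotype the spread between animals is unknown, no test was made, and every value below was measured once. Signals are MAS5 signals in arbitrary units, in which each probe set is summarised from its matched and mismatched probes. The floor for a measurable signal was each array's median without the control probe sets, which was 36.2 for wild type and 38.0 for knockout. Pgr itself, the targeted gene, read 36.5 (wild type) and 42.8 (knockout) by its brightest probe set, so the arrays give no check of the genotype labels. In whole-ovary RNA, fewer cells of a type, less RNA per cell and a change in other cells that express the same gene cannot be told apart.

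Macrophages are the resident leukocytes of the ovary, found in the stroma, in the theca around follicles and in the corpus luteum. Luteinizing hormone brings further leukocytes, neutrophils and eosinophils among them, into the ovulating follicle, where they release proteases and cytokines and clear debris. Leukocytes share a set of genes such as Ptprc (CD45), and each lineage adds receptors, granule proteins and antigen receptor chains of its own.

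Of the 42 genes, 41 had a probe set that carries only their symbol, and 24 of them reached the floor on at least 1 array. The measured genes included 6 of 7 general leukocyte genes, 5 of 7 macrophage genes and all 3 C1q genes, while markers of T cells, B cell receptors and mast cell granules lay under the floor. The floor was reached by 20 genes on both arrays and by 4 on the wild-type array only (Spi1, Cd163, Tlr4 and Lcn2). Another 17 were under the floor on both arrays, and Lilrb4 had no probe set with a single symbol. A gene counted as measured through the wild-type array only had to be lower in the knockout or close to the floor, so the 20 genes on both arrays are described first.

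Signals of these 20 genes were lower in the knockout for 16 and higher for 4 (Cd52, Csf1r, Mrc1 and Kit). As log2 differences (knockout minus wild type) they had a median of -0.17 and ran from -0.85 to 1.23. Over the 5965 genes that lay on both arrays in the same range of mean signal, the median was 0.10 and 37.7% had lower signal in the knockout, against 80% of the 20. A difference of 1.5-fold or more was seen towards lower signal in 4.79% of those 5965 genes and towards higher signal in 8.57%. At a 1.5-fold threshold, 4 of the 24 measured genes were lower in the knockout (Tyrobp, Cd14, Fcgr2b and Cd53), or 16.7%, beside 4.75% of all 11316 measured genes. Kit was the 1 gene at least 1.5-fold higher, or 4.17%, beside 6.54% of all measured genes. After the arrays were centred on their medians the background was 5.88% lower and 4.88% higher. At 2-fold, 0 members were lower, beside 1.72% of all measured genes, and Kit alone was higher, beside 1.15%. Lcn2 would count as 2-fold lower if its knockout signal of 17.0 were not raised to the floor. The genes nearest to the 1.5-fold threshold were Fcgr3, 1.49-fold lower, and Cd53, 1.54-fold lower. Probe sets of the same gene give the only spread that these arrays hold: for 2560 genes in the members' signal range, log2 differences of probe sets scattered around their gene's mean with an SD of 0.28, or 1.21-fold. Of the 20 genes, 9 differed by less than this SD and 6 by more than 2 SD. The share of other genes past 2 SD was not counted. As 2 SD is 0.55 on the log2 scale, near the 1.5-fold threshold, the shares past 1.5-fold given above come closest. The SD covers differences between probes and transcript forms, not between animals.

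**Figure D1:**
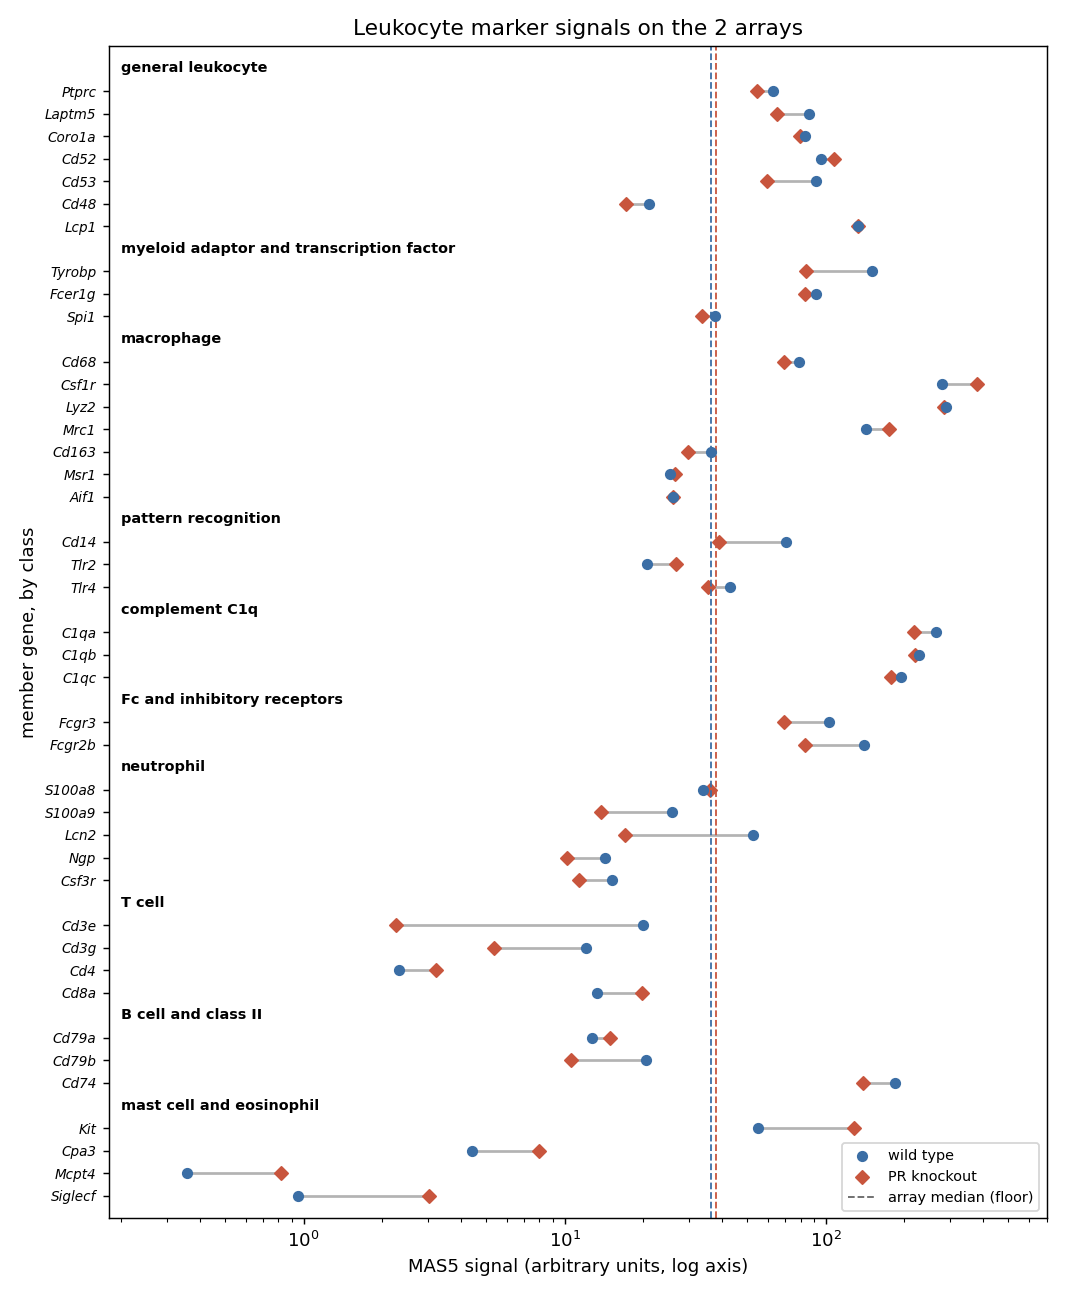
MAS5 signal (log axis) of the 41 genes with a probe set, by class, with wild type as blue circles and PR knockout as red diamonds; the dashed lines are the array medians of 36.2 and 38.0. All 4 T cell genes lie left of both lines, the 3 C1q genes lie to their right, and Kit has the widest gap among genes right of both lines.

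**Figure D2:**
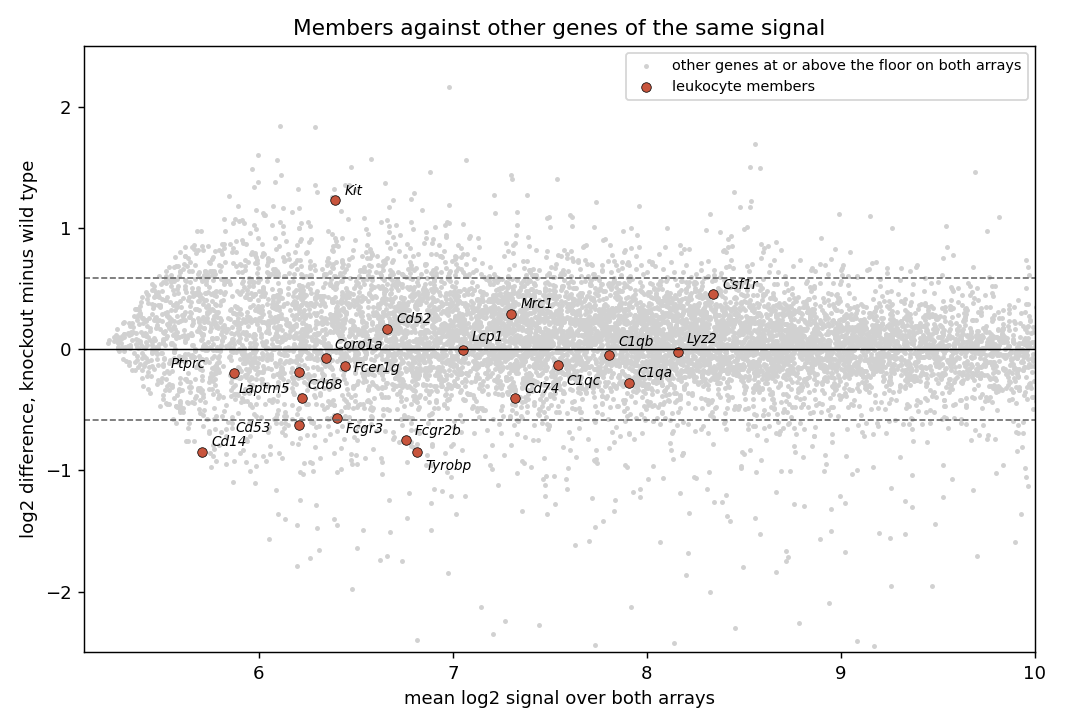
Log2 difference (knockout minus wild type) against mean log2 signal for the 20 genes on both arrays (red, named) and other genes on both arrays (grey); the dashed lines mark 1.5-fold, and genes beyond the axis limits are not drawn. Of the 20 genes, 16 lie below 0, and Kit lies above the upper dashed line.

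The myeloid adaptor Tyrobp and the IgG receptors Fcgr3 and Fcgr2b had lower signals in the knockout. Tyrobp (DAP12) carries the activation signal of many myeloid receptors into the cell. By its only probe set it read 151 (wild type) and 83.9 (knockout), 1.80-fold lower. Fcer1g, the signalling chain shared by several Fc receptors, gave 91.4 and 82.9, a 1.10-fold difference and less than the SD between probe sets. Fcgr3, an activating IgG receptor that signals through Fcer1g, was 103 and 69.4, or 1.49-fold lower. Fcgr2b is the inhibitory IgG receptor and the neighbour of Fcgr3 in the genome, with 1 gene (Fcgr4) between them. Its brightest probe set gave 140 and 83.4, 1.68-fold lower. Other probe sets of Fcgr2b did not give the same size: another gave 112 and 61.3 (log2 difference -0.87), the next gave 58.3 and 58.1 (-0.01), both of them labelled as able to match several transcripts, and the last measurable one read 78.9 in the wild type with a knockout signal of 31.6, under the floor. Averaged over all 5 of its probe sets, 1 of which was under both floors, Fcgr2b read 41.6 and 22.7, the latter under the floor, so the averaged log2 difference of -0.13 is only a bound (-0.87 without the floor). Spi1 (PU.1), the transcription factor that drives myeloid development, read 37.8 (wild type) and 33.7 (knockout, under the floor), so no fold is given.

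Promoters of the genes past 1.5-fold are shown for the 3 that have an entry in the RefSeq promoter table (build GRCm38.p6), since these are the genes on which the counts turn. Each is the 250 bases before the annotated start, with matches to GGAAGT on either strand, the core that ETS factors such as PU.1 bind, in capitals. Positions are counted back from the start, with -1 as the base before it.
Fcgr2b, chr1:170976072-170976321, minus strand: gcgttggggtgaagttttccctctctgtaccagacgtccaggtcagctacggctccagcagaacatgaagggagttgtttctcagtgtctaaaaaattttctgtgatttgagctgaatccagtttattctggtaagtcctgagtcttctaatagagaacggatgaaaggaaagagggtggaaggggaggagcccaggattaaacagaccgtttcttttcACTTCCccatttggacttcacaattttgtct
Cd53, chr3:106790150-106790399, minus strand: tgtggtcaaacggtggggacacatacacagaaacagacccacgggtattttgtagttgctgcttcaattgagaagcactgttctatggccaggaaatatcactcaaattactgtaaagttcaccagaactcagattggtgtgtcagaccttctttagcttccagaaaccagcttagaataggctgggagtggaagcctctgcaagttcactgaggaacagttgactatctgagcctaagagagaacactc
Kit, chr5:75574737-75574986, plus strand: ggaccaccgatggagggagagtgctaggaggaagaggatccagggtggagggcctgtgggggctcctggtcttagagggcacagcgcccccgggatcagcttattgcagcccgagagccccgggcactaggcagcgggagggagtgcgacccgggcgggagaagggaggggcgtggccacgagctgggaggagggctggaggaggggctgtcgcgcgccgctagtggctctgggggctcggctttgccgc
The window of Fcgr2b held 1 match, beginning at -31 and lying on the opposite strand, and those of Cd53 and Kit held 0. Over the 30 members with an entry, matched by symbol, 14 held GGAAGT in at least 1 such window (46.7%), beside 22.2% of all 27025 genes in the table. The measured ones besides Fcgr2b were Ptprc, Laptm5, Lcp1, Lyz2, Mrc1, C1qb and C1qc. The others, Cd3e, Cd79a, S100a8, S100a9, Siglecf and Tlr2, were under both floors. The palindrome that progesterone receptor and its relatives bind, searched as GNACA and TGTNC with 3 bases between them, was in 0 of the 30 and in 0.44% of all genes. These are matches of letters, not sites shown to be bound.

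General leukocyte genes differed little apart from Cd53. Ptprc, the CD45 phosphatase of the leukocyte surface, read 62.8 with the receptor and 54.7 without it, 1.15-fold lower. Cd53, a tetraspanin of the leukocyte membrane, read 91.5 and 59.4. Its other probe set was under the floor on both arrays, so the 1.54-fold difference rests on 1 probe set. Laptm5, a lysosomal membrane protein, read 85.9 and 64.8, 1.33-fold lower, but a second measurable probe set gave 44.3 and 53.4, a log2 difference of 0.27. Coro1a, which binds actin, read 83.3 and 79.4, and its other measurable probe set was also lower in the knockout (57.8 and 51.3). Lcp1, which bundles actin filaments, read 133 and 132 by its brightest probe set and 59.6 and 83.2 by the other. Cd52, a short surface glycopeptide, read 95.5 and 107, 1.12-fold higher. Cd48, a surface ligand of lymphocytes, was under both floors at 21.0 and 17.1. Of the 7 genes in this class, 6 were measured, 5 of them lower and 1 higher in the knockout. Among the 5965 genes in the members' signal range, 37.7% were lower. Only Cd53 was past 1.5-fold, where 4.75% of all measured genes were at least that much lower.

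Macrophage genes did not move in 1 direction. Csf1r, the receptor for the macrophage growth factors CSF1 and IL-34, read 277 (wild type) and 380 (knockout), 1.37-fold higher. Its other probe sets were higher too, by 0.23 (111 and 130) and 0.05 (99.2 and 102.9) on the log2 scale. Mrc1, the mannose receptor of tissue macrophages, read 143 and 175, 1.23-fold higher. Cd68, a glycoprotein of the endosome and lysosome, read 78.9 and 69.1, 1.14-fold lower. Lyz2, the lysozyme of myeloid cells, read 288 and 283, a 1.02-fold difference. Lyz2 has a close paralogue, Lyz1, whose brightest probe set read 547 and 566, and signals of the pair may not be separable on the array. The scavenger receptor gene Cd163 read 36.5 (wild type), at the floor, and 29.7 (knockout), under it. Msr1, another scavenger receptor, and Aif1 (Iba1) were under both floors, at 25.3 and 26.5 and at 26.0 and 26.0.

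The 3 chains of complement C1q, which macrophages make and which lie next to each other in the genome, were measured well above the floor. C1qa read 264 and 218 (1.21-fold lower), C1qb 228 and 220 (1.04-fold lower) and C1qc 195 and 178 (1.09-fold lower). All 3 were lower in the knockout by less than 1.5-fold, C1qa (-0.28 on the log2 scale) by about the SD between probe sets and the others by less. The 3 probe sets of C1qb on both arrays ran from -0.23 to 0.08 on the log2 scale. Of 8 other complement genes measured, 2 were at least 1.5-fold higher (beside 6.54% of all measured genes) and 0 lower, with a median of 0.23, while their summed signals were 5996 and 5918. Clu, or clusterin, an extracellular chaperone that also binds complement, read 4125 and 3572. The largest differences were in the membrane inhibitors of complement Cd55, at 151 and 254, and Cd59a, at 130 and 214, followed by the protease gene C1s1, at 286 and 408.

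Receptors for microbial products were dim. Cd14, which hands lipopolysaccharide to Tlr4, read 70.2 (wild type) and 39.0 (knockout) by its only probe set, 1.80-fold lower. Its knockout signal lay just above the floor and below the 42.8 of Pgr, and with an offset of 16 added to both signals the log2 difference was -0.65 in place of -0.85. Tlr4 read 42.8 and 35.4, the latter under its floor, at least 1.13-fold lower, and Tlr2 was under both floors at 20.7 and 26.8. Ly96, the partner of Tlr4 that binds the ligand with it, read 165 and 128, a log2 difference of -0.37. Of 12 measured genes of the toll-like receptor pathway, 1 was at least 1.5-fold lower, beside 4.75% of all measured genes. Past 1.5-fold higher were 0 of the 12, beside 6.54%, and the median was -0.25. Nfkbiz, a nuclear regulator induced by such receptors, read 475 and 186 (-1.35), and its other probe sets gave -1.20 and -1.01. Next were the kinase-like adaptor gene Irak2 (-0.46) and the receptor for double-stranded RNA, Tlr3 (0.43).

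**Figure D3:**
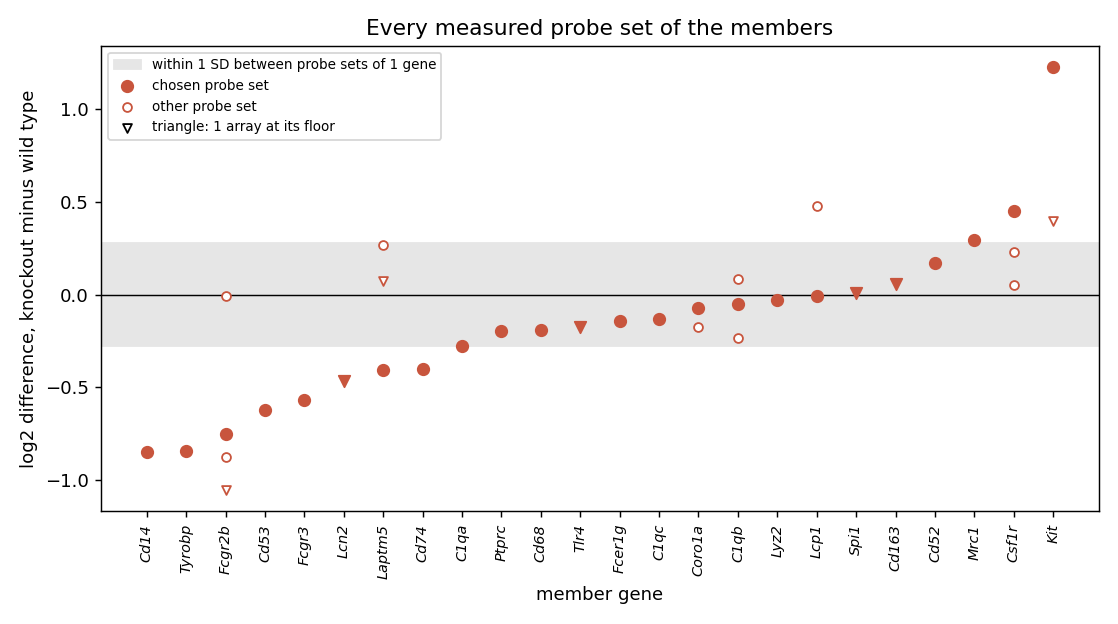
Log2 difference (knockout minus wild type) of every probe set that reached the floor on at least 1 array, for the 24 measured genes; filled symbols are the chosen probe sets, open ones the others, triangles have 1 array set to its floor, and the grey band is 1 within-gene SD (0.28). Probe sets of Fcgr2b, Laptm5, Lcp1 and C1qb spread widely or across 0, while those of Csf1r and Kit lie above 0.

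Neutrophil genes lay under the floor on both arrays, apart from Lcn2 in the wild type. S100a8 and S100a9, neighbours in the genome whose products form calprotectin, read 33.8 and 36.0, and 25.7 and 13.8, in wild type and knockout. Ngp, a granule protein, read 14.2 and 10.2, and Csf3r, the receptor for the growth factor G-CSF, 15.2 and 11.4. Lcn2, which binds bacterial siderophores, was the 1 neutrophil gene of 5 to pass the floor. It read 52.5 (wild type) and 17.0 (knockout, under the floor), at least 1.38-fold lower. Of 18 other neutrophil genes, 15 had a probe set and 14 were under both floors. The exception was Camp, the cathelicidin of neutrophil granules, at 160 and 51.4, or 3.12-fold lower.

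Antigen receptor chains of lymphocytes were not measurable. The T cell genes Cd3e (20.0 and 2.26), Cd3g (12.1 and 5.34), Cd4 (2.33 and 3.22) and Cd8a (13.3 and 19.7) lay under both floors, as did the B cell receptor genes Cd79a (12.8 and 15.0) and Cd79b (20.4 and 10.6). No fold is given for signals under both floors. Cd74, the invariant chain that guides class II molecules, read 184 and 139, 1.32-fold lower. Class II is carried by macrophages and dendritic cells as well as by B cells. The class II chain genes H2-Aa (180 and 164) and H2-Ab1 (155 and 119) had log2 differences of -0.14 and -0.37. Of 10 measured genes of antigen presentation, 1 was at least 1.5-fold higher, beside 6.54% of all measured genes, and the median was -0.08. The 1 gene was the immunoproteasome subunit gene Psmb9, at 46.5 and 87.6. H2-DMa read 54.3 and 28.9, the latter under its floor. Of 22 other lymphocyte and natural killer cell genes, 2 were measured: Thy1, also a gene of fibroblasts, at 489 and 268, and the cytotoxic protease gene Gzmb at 114 and 64.7.

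Kit differed most of the 20 members measured on both arrays, and it was the only measured gene among the mast cell and eosinophil markers. Kit is the receptor for stem cell factor, and besides mast cells it is expressed by oocytes and theca cells of the ovary. Its brightest probe set read 54.9 (wild type) and 129 (knockout), 2.34-fold higher. The other probe set read 24.0, under the floor, and 47.7, at least 1.32-fold higher. The defining mast cell and eosinophil genes were near 0 on both arrays: Cpa3 read 4.42 and 7.95, Mcpt4 0.36 and 0.82, and Siglecf 0.95 and 3.03. Its ligand gene Kitl, made by granulosa cells, read 806 and 816. Of 12 measured oocyte genes, 0 were at least 1.5-fold higher or lower, beside 6.54% and 4.75% of all measured genes. Their median was 0.14, with summed signals of 3118 and 3469. Of the oocyte genes on both arrays, 9 were higher and 2 lower in the knockout. Nlrp5 (221 and 327), Bmp15 (64.8 and 76.9) and Dppa3 (267 and 312) differed most. Of 14 other mast cell, basophil and eosinophil genes, 2 were measured, the histamine-making enzyme gene Hdc (980.4 and 800.0) and the transcription factor gene Gata2 (118 and 84.1).

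Leukocyte genes outside the 42 were read from 4 further lists, also chosen with earlier results of these data known. The lists hold 101 genes in all, of which 23 were measured. Of these, 4 were at least 1.5-fold lower in the knockout (Camp, Thy1, Gzmb and Lyve1), or 17.4% beside 4.75% of all measured genes. At least 1.5-fold higher were 0, beside 6.54%, and the median log2 difference was -0.27. Camp was the 1 measured gene of its list, where 14 lay under both floors. Thy1 and Gzmb were the 2 measured genes of theirs, where 16 lay under both floors. Of the 18 measured general and macrophage genes, 1 was at least 1.5-fold lower, beside 4.75% of all measured genes. In the list of general and macrophage genes, Lyve1, a hyaluronan receptor of lymphatic vessels and some macrophages, read 182 and 115. Ms4a6d (56.1 and 33.6) and Rac2 (55.5 and 34.9) were under the floor in the knockout, so their folds are bounds. The integrin genes Itgam (13.4 and 7.29) and Itgb2 (31.1 and 25.8), which form the receptor Mac-1, were under both floors. Among growth factors of leukocytes, Csf1, a ligand of Csf1r, read 127 and 79.5, 1.60-fold lower, and its other measurable probe set gave 48.1 and 42.7. Il34, the other ligand, and Csf3, the ligand of Csf3r, were under both floors, and Il7 read 52.7 and 64.8. Of 12 measured genes of leukocyte adhesion, 3 were at least 1.5-fold lower, beside 4.75% of all measured genes. The 3 were Icam1, the integrin ligand on activated endothelium, at 157 and 66.2, Cd47, at 1612 and 855, and Jam3, at 572 and 328. None of these 12 was 1.5-fold higher, beside 6.54% of all measured genes, and the median was 0.03.

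**Figure D4:**
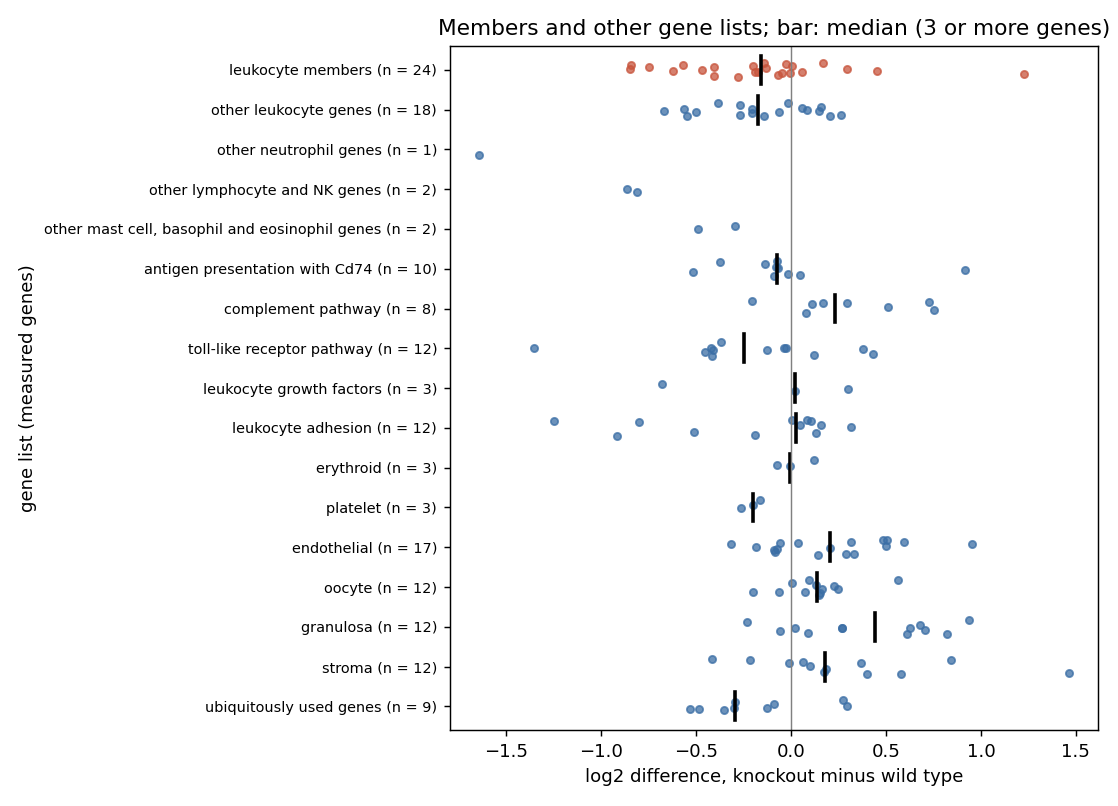
Log2 difference (knockout minus wild type) of the measured genes of each list, 1 point per gene, with the median as a black bar for lists of 3 or more. The leukocyte members (red, median -0.16) and the other leukocyte genes lie mostly left of 0, the granulosa genes (median 0.44) mostly right of it, and the ubiquitously used genes have a median of -0.30.

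Marker genes of other ovarian cell types had higher summed signals in the knockout. Of 12 measured granulosa genes, 10 had higher knockout signals, with summed signals of 17637 and 20055. At least 1.5-fold higher were 6 of the 12, beside 6.54% of all measured genes. The largest differences were in Esr2 (179 and 342), Inhbb (1113 and 1968) and Bmpr1b (372 and 606). Of 17 endothelial genes, 2 were at least 1.5-fold higher, beside the same 6.54%, 0 were lower, and the sums were 3767 and 4177. The 2 were Tie1 (68.0 and 132) and Vwf (35.8, under its floor, and 54.7). Vwf counted as measured through the knockout array only, so its fold is a bound. Cldn5 had the next largest difference of the endothelial genes, at 202 and 288. The 12 stroma genes had sums of 19948 and 22849, with 9 higher and 3 lower in the knockout. At least 1.5-fold higher were 2 of the 12, beside 6.54% of all measured genes, and 0 were that much lower, beside 4.75%. Tcf21 (498 and 1373), Lum (1162 and 2085) and Ogn (1588 and 2375) differed most. The summed signal of the 24 measured leukocyte genes was 2990 with the receptor and 2762 without it, a ratio of 0.92. Of these 24, 4 entered the sum through the wild-type array only (Spi1, Cd163, Tlr4 and Lcn2). All 4 had lower knockout signals, so this selection pulls the ratio down. Of 12 red cell genes, the 3 measured were Alas2, Bpgm and Fech, the last of which many cells use, and Hba-a1, Slc4a1, Epb42 and Klf1 lay under both floors, so red cell content was not read. Of 11 platelet genes 3 were measured: Pf4 (168 and 146), Itga2b (84.6 and 70.5) and Gp1bb, the last on the wild-type array only. Past 1.5-fold were 0 of the 3, and the sums were 295 and 247. Genes that most cells use had a median of -0.30 over 9 measured, led by Hprt (1681 and 1161), Pgk1 (3279 and 2346) and Ywhaz (3682 and 2880), and their sums were 49031 and 40986. The part of these differences in the leukocyte values was not tested.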

How the data were processed

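RNA was measured on 2 Affymetrix GeneChip arrays, 1 per genotype. The deposited values are linear intensities, 1 for each probe set on each array. The authors made them with MAS5 and Affymetrix Expression Console version 1, per the submitters' processing notes. When 2% of the 45101 probe sets are trimmed from either tail, both arrays average 150. The 64 control probe sets were set aside. Per the labels' protocols, target was made from 100 ng of RNA with a kit that primes at the 3′ end, so signals read mostly the 3′ part of transcripts. MAS5 subtracts mismatch probes, which makes low signals noisy.

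Genes were named from the platform annotation: 34945 probe sets carried 1 symbol, 932 several and 9160 none. The IDs of all 41 members with a probe set were found in the RefSeq table of GRCm38.p6, with 0 changed symbols. Where a gene had several probe sets, the brightest by mean log2 signal stood for it, and signals under the array median were set to it before log2. A fold with 1 floored array is written "at least". Every member was accounted for, and from each other list the 3 largest differences and the partners of members were named. Members and lists were chosen with earlier results of these data known. With 1 array per genotype there is no test, and a batch could not be told apart from genotype. The number of arrays limits the precision. Alternatives changed the scaling, the floor, the choice of probe set and the threshold. The functions were tested on simulated data with folds planted only in genes well above the floor on both arrays. Signals near the floor were not checked in this way. Python 3.11.15, pandas 2.3.3 and statsmodels 0.14.6 were used.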

Additional observations from a re-analysis of the deposited data

How the results depend on the processing

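The count of members at least 1.5-fold lower (4) was 5 after median centring, quantile normalization or removal of the loess trend, where Fcgr3 joined, and 5 with no floor, where Lcn2 joined (also past 2-fold there). With the offset of 16 it was 4, but Lcn2 (-1.05) replaced Cd53 (-0.51). It was 2 with the mean over probe sets: Tyrobp and Cd14, which have 1 probe set each, so that averaging could not change them. There the averaged knockout signal of Fcgr2b and both of Cd53 were under the floor. The count was 0 at 2-fold. With the 70th-percentile floor (121 and 128) it was 0: 11 members stayed measured, and the floor caps the folds of Tyrobp and Fcgr2b under 1.5, so this count says nothing about them. The count at least 1.5-fold higher (1, Kit) went to 0 with the 70th-percentile floor, which caps its fold likewise, and was 1 elsewhere. The median of the members (-0.16) was -0.050 with that floor and ran from -0.26 to -0.13 over the other alternatives, and it was -0.17 over genes on both arrays, an alternative chosen after seeing the data. Of the 24 measured members, 21 kept the sign of their difference under every alternative that measured them, the exceptions being Cd163, Lcp1 and Spi1. Most alternatives use the same 2 signals of a probe set, so the sign could rarely change. With the mean over probe sets, Cd53, Coro1a, Tlr4, Ptprc and Laptm5 fell under both floors and were not compared. Without the floor, their averaged log2 differences were 0.95, 0.19, 0.06, -1.16 and -0.26. Signals near the floor limit Cd14, Tlr4, Lcn2, Spi1 and Cd163. No paired analysis was possible because each genotype has 1 array.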
